A study of Oryctolagus cuniculus with 4 samples.

Results

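Gene expression in rabbit ligamentum flavum, the elastic ligament that spans the laminae of neighbouring vertebrae, was compared between both arrays of a surgical model and both control arrays. These are all 4 arrays of the series, chosen by their titles. Male rabbits aged 34 weeks were sampled, and every sample is labelled as 16 weeks after surgery. In the operated rabbits the muscle over L3/4 had been resected and the segments L2/3 and L4/5 had been fused posterolaterally with instrumentation. The first model array holds ligament of the intervertebral stress concentration (ISC) level, L3/4, which lies free between the fusions. The second holds ligament of the fused levels, L2/3 and L4/5. The control arrays hold ligament of L3/4 (L3/4 control) and of L2/3 with L4/5 (L2/3+L4/5 control). Whether the controls were operated on, and whether animals were pooled, is not given in the sources used here.

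Both model arrays thus come from operated rabbits with instrumented fusions, but whether they hold the same animals is not given in the sources used here. Their local surgery differs, with muscle resected over the ISC level and instrumented fusion at the fused levels. By design their mechanical loading differs too, with stress concentrated at the ISC level and movement removed at the fused levels. No measurement of loading was used here. A difference between the model arrays holds both local surgery and loading, and their parts were not tested. Each condition has 1 array, so the pair on a side is not a pair of replicates, and no value below carries a spread between animals. In bulk tissue, fewer cells of a type and less RNA per cell cannot be told apart.

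The ligamentum flavum consists of fibroblasts in a matrix of elastic fibres, collagens and small proteoglycans. Such fibroblasts answer load and injury through growth factors, prostaglandins, cytokines and matrix proteases. Skeletal muscle, fat, bone marrow and blood vessels lie next to the ligament, and their RNA can enter a dissected sample.

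Values are log2 of the background-subtracted spot signal minus the array's 75th percentile, called scaled signal here, so 0 means a spot as bright as that percentile. A feature is a gene with a symbol, or an accession or probe name where no symbol could be assigned. The gap is the difference between the nearest arrays of the 2 sides. It is positive where both model arrays lie above both controls and negative where both lie below, and there is no gap where the sides overlap. A gap of 1 or more in size means at least 2-fold. Of 22904 features, 12741 were well above background on all 4 arrays, and 886 of these are genes with a symbol.

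Before scaling, both model arrays were brighter than both control arrays. The 75th percentile was a signal of 93.8 on the ISC array and 85.4 on the fused array, against 53.4 and 72.8 on the L3/4 and L2/3+L4/5 control arrays. In the same order, 67.9%, 65.0%, 59.6% and 61.1% of probes were well above background. The part of this brightness in the results was not tested. As a check of tissue, the collagen gene COL1A2 had scaled signals between 7.80 and 8.79 on the 4 arrays. Tenomodulin, whose gene TNMD marks cells of tendons and ligaments, was at −2.03 on the ISC array, −1.94 in the L3/4 control and −1.89 in the L2/3+L4/5 control. At the fused levels it was not well above background.

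Both model arrays lay above both controls for 1700 features (13.3%) and below both for 3317 features (26.0%), together 5017 (39.4%). Most of these gaps were small, with a median of 0.20 among the higher features and of 0.22 in size among the lower ones. At least 2-fold separated the sides for 43 higher features (0.337%) and 62 lower features (0.487%), together 105 (0.824%). The model minus control difference had a median of −0.11 over all features. With features ranked by mean signal into 4 equal bins, 30.2% lay below and 11.0% above in the dimmest bin, and 25.1% and 11.6% in the brightest. From the dimmest to the brightest bin, 9, 24, 7 and 3 features had a 2-fold gap higher, and 27, 22, 8 and 5 a 2-fold gap lower.

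**Figure D1:**
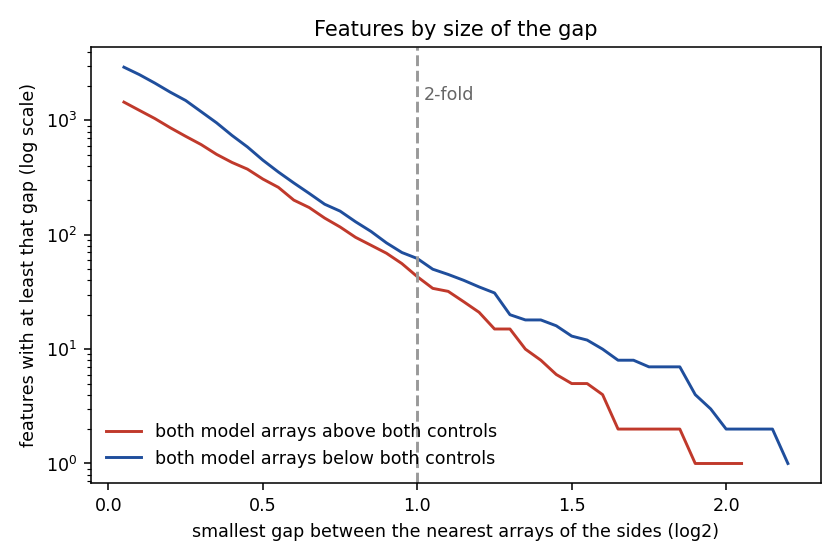
Number of features (vertical axis, log scale) whose sides are separated by at least the gap on the horizontal axis (log2), for both model arrays above both controls (red) and below both (blue). The lower direction holds more features throughout most of the range, and at the dashed 2-fold line 43 features are higher and 62 lower.

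A limma fit of the model minus control mean passed no feature at an adjusted p under 0.05 (Benjamini-Hochberg), with 0 of 12741 called (0.0%). The smallest adjusted p was 0.789, and 567 features (4.45%) had an unadjusted p under 0.05, 246 higher and 321 lower. The residual of this fit holds the difference between the ISC and fused levels and that between lumbar levels. The gaps below are therefore descriptions of 4 arrays.

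The gap was also set beside the differences within the sides, as a description, since features with a 2-fold gap were chosen for its size. It exceeded both the difference between the model arrays and that between the controls for 37 of 43 higher and 47 of 62 lower features. Among all features without overlap, that held for 23.2% of the higher and 27.8% of the lower ones. The ISC array was the model array nearest the controls for 35 of the 43 higher and 40 of the 62 lower features. The L2/3+L4/5 control was the nearest control for 31 and 38 of them. Genes with more than 1 measured probe allowed a look at other probes of the same transcript. Among features with a 2-fold gap, 13 of 15 further probes lay on the same side for the higher and 31 of 34 for the lower, and 0 on the opposite side. Of all such further probes, 15.5% lay above and 16.8% below.

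Of the 886 genes with a symbol, 113 (12.8%) were higher and 240 (27.1%) lower on both model arrays, together 353 (39.8%). A 2-fold gap was reached by 6 higher genes (0.677%) and 6 lower genes (0.677%), together 12 (1.35%). The higher genes described here are E2F6, SPTLC1, HGF, PTGS2 and RLA-DR-ALPHA. The lower ones were SLN, CASQ2, ITIH6, RPRD1A, ENO3 and ITIH2. RLA-DR-ALPHA at 1.14 was the nearest inside 2-fold among higher genes and APOD, at 0.96, lay just outside. For lower genes ITIH2 at −1.05 lay just inside and HOXD10 at −0.97 just outside.

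E2F6 encodes a repressor of the E2F family, which regulates cell cycle genes. Its scaled signal was 1.25 at the ISC level and 1.07 at the fused levels, against −1.32 in the L3/4 control and −0.56 in the L2/3+L4/5 control. Both model arrays were close to each other and well apart from the controls, with a gap of 1.63. The mean difference was 2.10 (SE 0.39, limma adjusted p = 0.789). The gene has 1 probe.

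SPTLC1 encodes a subunit of serine palmitoyltransferase, which starts sphingolipid synthesis. It read 0.41 and 0.56 on the ISC and fused arrays and −1.75 and −1.21 in the L3/4 and L2/3+L4/5 controls. The model arrays differed by 0.15, the controls by 0.55, and the gap was 1.62.

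HGF encodes hepatocyte growth factor, a ligand that mesenchymal cells make and that acts on the MET receptor. The fused array was highest at 1.15 and the ISC array next at 0.76. The L3/4 control was at −0.79 and the L2/3+L4/5 control lowest at −2.25. The gap was 1.56 for the brightest probe and 0.97 for the other measured probe.

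PTGS2 encodes cyclooxygenase-2, the inducible enzyme of prostaglandin synthesis. Its signal was −0.74 at the ISC level and −0.08 at the fused levels, and −2.05 and −2.52 in the L3/4 and L2/3+L4/5 controls. Both model arrays were above both controls with a gap of 1.31. A second measured probe of PTGS2 did not separate the sides, and the gap was under 2-fold with the probes averaged. The constitutive PTGS1 overlapped between the sides, at 0.23 and −0.07 in the model arrays and 0.39 and 0.08 in the controls.

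RLA-DR-ALPHA encodes the alpha chain of the rabbit class II molecule that presents antigen to helper T cells. It was at 1.99 on the fused array and 1.14 on the ISC array, while the L3/4 and L2/3+L4/5 controls were at 0.00 and −0.11. The controls differed by 0.11 only, and the gap was 1.14, with 0.92 for its second probe. RLA-DMA, a class II loading factor, overlapped, at 2.10 and 3.47 in the model arrays and 2.39 and 1.52 in the controls. RLA-DMB was higher on both model arrays, at −0.46 and 0.89, than in the L2/3+L4/5 control at −1.50, and was not well above background in the L3/4 control.

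**Figure D2:**
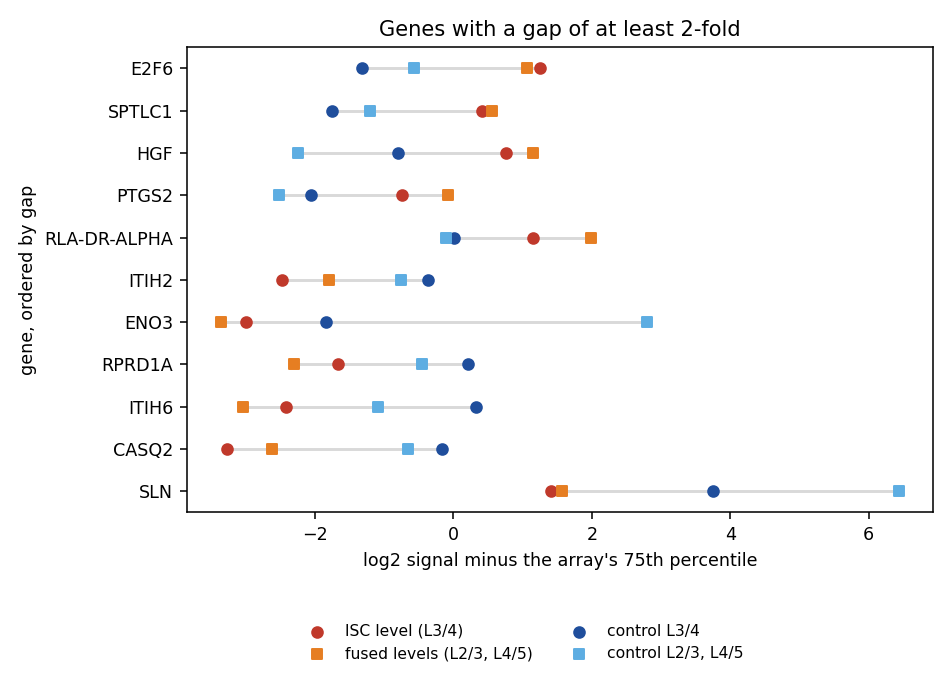
Scaled log2 signal (horizontal axis) of the genes described here with a symbol and a gap of at least 2-fold, 1 point for each array and genes ordered by gap. Red and orange points (model arrays) lie to the right of both blue points for the upper 5 genes and to the left for the lower 6, while ENO3 and SLN show the widest spread between controls.

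SLN, which encodes sarcolipin, a small inhibitor of the calcium pump of muscle, had the most negative gap of all named genes. Its signal was 1.41 at the ISC level and 1.57 at the fused levels. The L3/4 control was at 3.75 and the L2/3+L4/5 control at 6.44. The gap was −2.18, set by the L3/4 control, and the controls themselves differed by 2.69. All 5 probes lay on the same side, with gaps between −3.43 and −1.82.

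CASQ2, the calsequestrin of cardiac and slow muscle that stores calcium in the sarcoplasmic reticulum, had a gap of −1.97. It was at −3.27 and −2.62 on the ISC and fused arrays. The L3/4 and L2/3+L4/5 controls were at −0.17 and −0.66 and thus differed by less than the gap. Its mean difference of −2.54 (SE 0.39) had a limma adjusted p of 0.789. ENO3, the muscle form of the glycolytic enzyme enolase, had a gap of −1.14. Its signals were −2.99 and −3.36 in the model arrays, −1.85 in the L3/4 control and 2.80 in the L2/3+L4/5 control. The spread between its controls, 4.65, was far larger than its gap.

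ITIH6 and ITIH2 encode heavy chains of the inter-alpha-trypsin inhibitor family, whose members bind hyaluronan. ITIH6 was at −2.42 and −3.03 on the ISC and fused arrays and at 0.32 and −1.08 in the L3/4 and L2/3+L4/5 controls, a gap of −1.34. ITIH2 was at −2.48 and −1.80 in the model arrays and −0.37 and −0.75 in the controls, a gap of −1.05. RPRD1A, whose product binds the tail of RNA polymerase II, was at −1.67 and −2.29 against 0.21 and −0.46, a gap of −1.21. These 3 genes have 1 probe each.

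The next higher genes lay under 2-fold. HP, the haemoglobin-binding acute-phase protein haptoglobin, was at 5.41 and 6.25 in the model arrays and 4.09 and 4.54 in the controls. The fused array was highest, and the gap of 0.87 exceeded the difference between the controls, 0.45. C1RL, a complement C1r-like protease, was even between the model arrays, at 2.59 and 2.56, and had a gap of 0.69. GCLC, which catalyses the limiting step of glutathione synthesis, was also even, at 1.12 and 1.10 against −0.05 and 0.35, a gap of 0.75. MAT2B, a regulatory subunit of methionine adenosyltransferase, had a gap of 0.71.

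APOD, a lipid-carrying lipocalin, was at 3.09 on the ISC array and 5.32 on the fused array, with the L3/4 and L2/3+L4/5 controls at 1.79 and 2.13. Its model arrays differed by 2.23, more than its gap of 0.96. PHKA2, a regulatory subunit of phosphorylase kinase, had a gap of 0.92. PDGFD, a ligand of the PDGF receptor beta on mesenchymal cells, was at 1.16 and 0.59 against −0.80 and −0.12, a gap of 0.71. Here the ISC array was the higher of the model arrays. TACR2, a neurokinin receptor, had a gap of 0.69.

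Among the next lower genes, HOXD10, a homeobox factor of body patterning, was at −1.80 and −2.15 on the ISC and fused arrays and −0.53 and −0.82 in the controls. All 3 of its probes had this order, with gaps between −1.27 and −0.97. FKBP4, a co-chaperone of HSP90, had a gap of −0.93 and MAP2, a microtubule-associated protein, one of −0.85 with both probes on the same side. PPP1R17, a phosphatase inhibitor, was at −0.84, TYRP1, a pigment enzyme, at −0.70 and ASB5, an ankyrin repeat protein, at −0.73. For HOXD10, FKBP4, MAP2, PPP1R17 and TYRP1 the gap exceeded the differences within both sides. For ASB5 the controls differed by more.

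**Figure D3:**
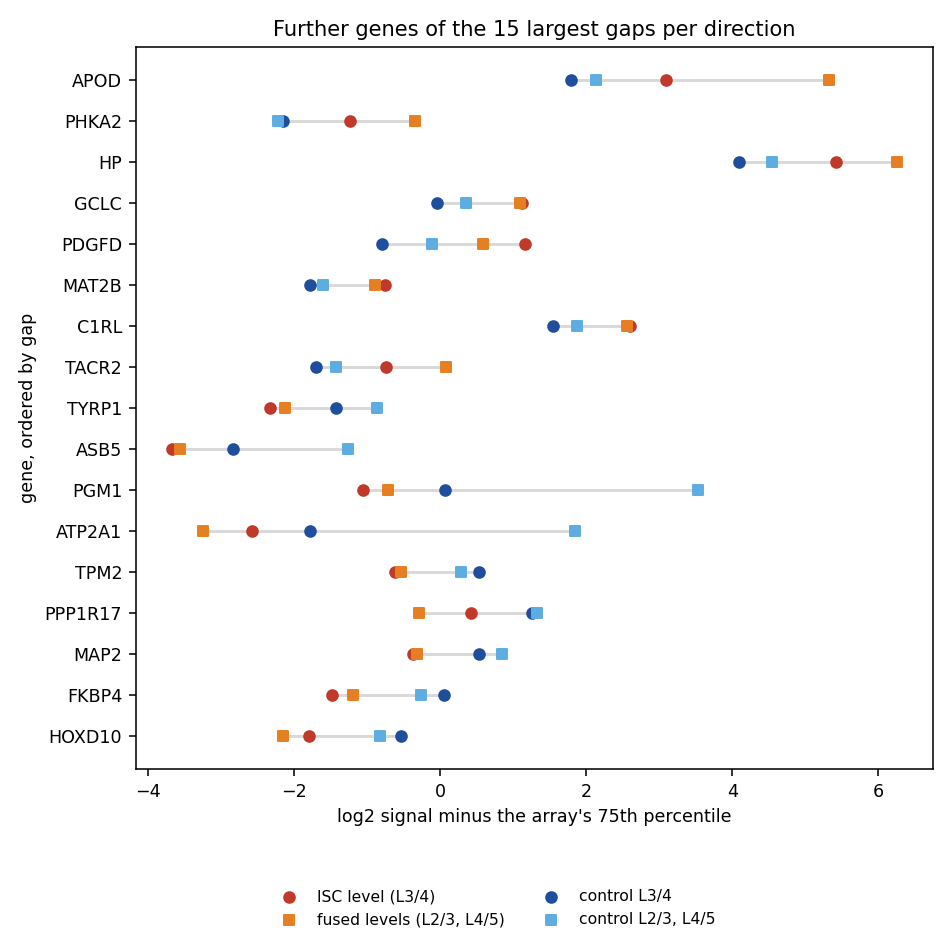
Scaled log2 signal (horizontal axis) of further genes among the 15 largest gaps in each direction, 1 point for each array. For APOD, HP, PHKA2 and TACR2 the orange point of the fused array lies farthest right, whereas GCLC, MAT2B and C1RL have nearly coinciding model arrays; PGM1 and ATP2A1 have 1 control far to the right.

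In the list of skeletal muscle genes, contractile genes stand with metabolic ones such as ENO3 and CKM. Its members were lower or overlapped, and none was higher. Of 11 measured genes 6 lay below both controls (background 27.1% of genes), 1 of them, the enolase gene ENO3, at 2-fold. The median difference was −2.70, against −0.11 over all features. The 6 were ENO3, TPM2, TPM1, MYH1, CKM and TNNC2, the last by a gap of −0.01 only. Under the other scalings 5 to 6 were lower and 0 higher. The list stood very unevenly on the controls. Its summed signal, in units of the 75th percentile, was 894 in the L2/3+L4/5 control and 35.8 in the L3/4 control, against 32.6 on the ISC array and 19.8 on the fused array. At L3/4 the median difference was −0.01 and at L2/3 and L4/5 it was −5.35. CKM, the muscle creatine kinase, illustrates this with −2.66 and −2.81 in the model arrays, −2.41 in the L3/4 control and 2.55 in the other control. Without the L2/3+L4/5 control the list had 6 lower and 1 higher of 11 genes, and without the L3/4 control it had 11 lower. Leaving out a control cannot lower these counts. Of all 12741 features, 5874 were lower and 3739 higher without the L2/3+L4/5 control, and 5143 were lower without the L3/4 control. The part of muscle RNA in that control in these gaps was not tested.

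TPM2 did not follow that pattern. This beta-tropomyosin gene of slow muscle and smooth muscle was at −0.63 and −0.54 on the ISC and fused arrays and at 0.53 and 0.28 in the L3/4 and L2/3+L4/5 controls. Its gap of −0.82 exceeded the differences within both sides. TPM1, alpha-tropomyosin, was at 1.98 and 2.08 against 2.72 and 4.81, and all its 7 probes had gaps between −0.75 and −0.64.

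Calcium-handling genes of the sarcoplasmic reticulum had 4 lower and 1 higher of 8 measured genes (background 27.1% and 12.8%). Beside SLN and CASQ2, ATP2A1, the calcium pump of fast muscle, had a gap of −0.80 and all 3 measured probes below both controls. HRC, a calcium-binding protein of the reticulum, was at 4.21 and 4.29 in the model arrays and 4.87 and 4.68 in the controls. The higher gene was ATP2A2, the pump of slow muscle and non-muscle cells, at 2.65 and 2.90 against 2.37 and 2.45. The list's median difference was −0.72 at L3/4 and −1.18 at L2/3 and L4/5. Without the L2/3+L4/5 control the same counts, 4 lower and 1 higher, were found. Genes below or above both controls stay so against the control that is left, so these counts could not fall. Of all 12741 features, 5874 were lower and 3739 higher in that run.

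Of 11 measured glycolysis genes 2 were lower, ENO3 and the pyruvate kinase gene PKM at −0.38, and 0 were higher, a share of lower genes that was under the background of 27.1%. PGM1, which interconverts glucose phosphates in glycogen metabolism, had a gap of −0.79 but controls 3.46 apart.

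Smooth muscle and myofibroblast genes had 4 lower and 0 higher of 7 genes (background 27.1% and 12.8%), with a median difference of −0.99. MYH11, the myosin heavy chain of smooth muscle, read 2.79 and 3.63 in the model arrays and 4.97 and 3.70 in the controls, a gap of −0.07. KCNMB1, a potassium channel subunit of smooth muscle, had a gap of −0.17. TPM1 and TPM2, shared with the muscle list, are the others. ACTA2, smooth muscle actin, overlapped, at 2.49 and 3.14 in the model arrays and 3.54 and 2.91 in the controls. Under the 5 other scalings and background corrections this list again had 4 lower and 0 higher genes.

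**Figure D4:**
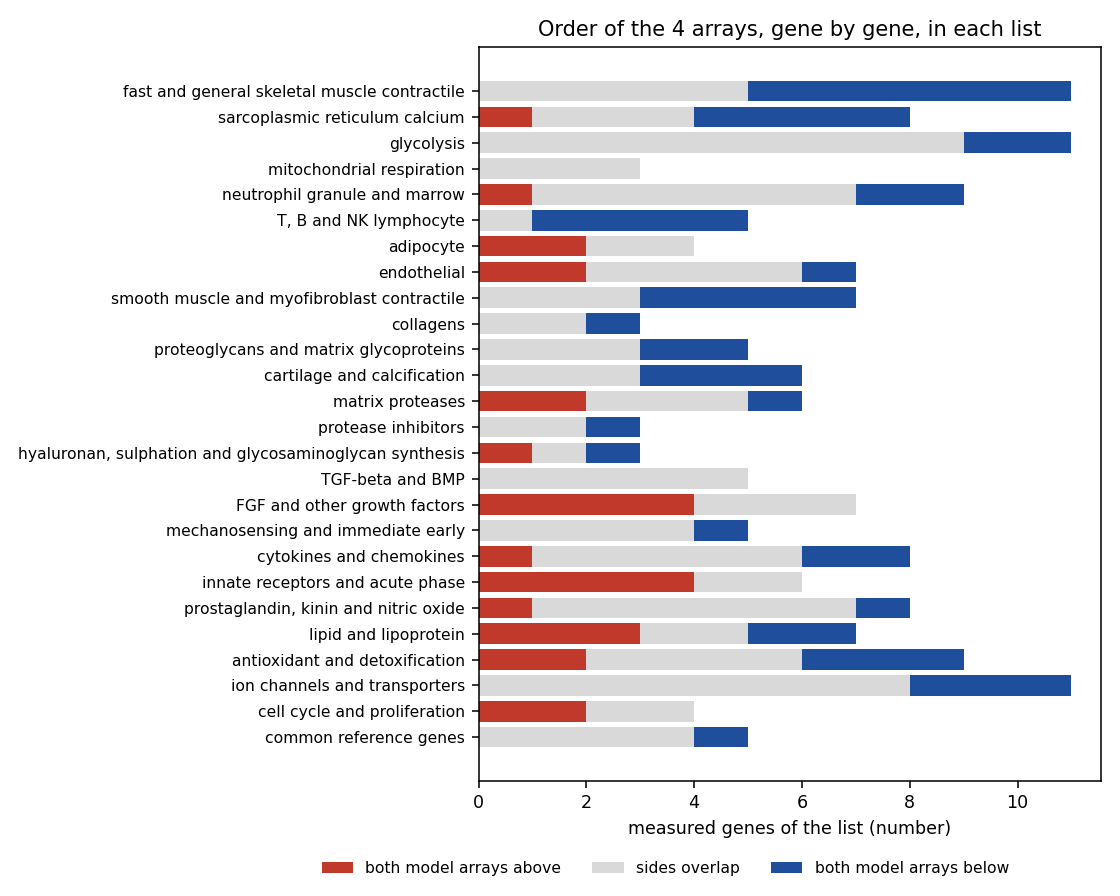
Number of measured genes (horizontal axis) in each gene list with at least 3 measured members, split by whether both model arrays lay above both controls (red), below both (blue) or the sides overlapped (grey). Growth factors, innate or acute-phase, adipocyte and cell cycle genes hold red and no blue. Many lists hold blue and no red, among them the muscle contractile, smooth muscle, glycolysis and common reference lists. TGF-beta and BMP genes and mitochondrial respiration genes are grey alone.

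Growth factors and their receptors other than the TGF-beta family had 4 higher and 0 lower of 7 genes (background 12.8% and 27.1%), and 4 higher with 0 to 2 lower under the other scalings. Beside HGF and PDGFD these were FGF2, a fibroblast mitogen, and GHR, the growth hormone receptor. FGF2 was at 0.68 and 0.26 on the ISC and fused arrays and −0.46 and 0.03 in the controls, with a gap of 0.23, smaller than the differences within the sides. GHR was at 2.15 and 2.35 against 1.82 and 1.76, and its gap of 0.32 exceeded the differences within both sides. FGF7, FGFR2 and KITLG overlapped. The list's median difference was 0.46, with 1.11 at L3/4 and 0.23 at L2/3 and L4/5. All 5 measured TGF-beta and BMP genes overlapped (0 to 1 lower under the other scalings), with TGFB2 at 0.97 and −0.20 in the model arrays and −0.29 and 0.75 in the controls.

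Innate immune receptors and acute-phase genes had 4 higher and 0 lower of 6 genes (background 12.8% and 27.1%), with a median difference of 0.97. Under the other scalings 4 were higher and 0 to 1 lower. TLR2, a receptor for bacterial lipoproteins, was at −0.57 and −0.45 in the model arrays and −2.17 and −0.93 in the controls. CD14, a co-receptor for endotoxin, was at 0.20 and 1.04 against −0.51 and −0.02. The TLR2 gap of 0.36 was smaller than the difference between its controls, 1.24. For CD14 the gap of 0.22 was smaller than the difference between the model arrays, 0.85. HP was also among the higher genes. The acute-phase gene SAA3 overlapped, since the L2/3+L4/5 control at 1.49 lay between the model arrays at 1.52 and 1.05.

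Most measured markers of granulocytes were brightest on the fused array, though CXCR1 and NCF1 were not. Of 9 measured neutrophil and marrow genes 1 was higher, CXCR1 and NCF1 were lower, and 6 overlapped (background 12.8% higher and 27.1% lower). The chemokine receptor gene CXCR1 was at −1.38 and −1.35 in the model arrays and −0.73 and −0.69 in the controls, a gap of −0.62. S100A9, a calprotectin subunit of neutrophils, was at 3.43 on the fused array and −1.93 on the ISC array, with the L3/4 and L2/3+L4/5 controls at −0.80 and −1.92. The summed signal of the list was 320.1 on the fused array, 11.1 on the ISC array, and 17.1 and 9.22 in the controls. Most of the sum on the fused array comes from MCP2, whose scaled signal was 7.83 there and 2.11 on the ISC array. The part of granulocytes in the gaps of HP, CD14 and RLA-DR-ALPHA was not tested.

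Adipocyte genes had 2 higher and 0 lower of 4 measured genes (background 12.8% and 27.1%), with 2 to 3 higher under the other scalings. LPL, the lipase that releases fatty acids from lipoproteins, was at 0.69 and 2.81 in the model arrays and −1.74 and 0.26 in the controls. ADIPOQ, the adiponectin gene, was at 2.49 and 3.48 against 1.55 and 2.15. Both had gaps, 0.43 and 0.34, that were smaller than the differences within the sides. PPARG and LEP overlapped. Haemoglobin genes overlapped too, with HBA at 7.76 and 9.17 in the model arrays and 8.65 and 7.06 in the controls. Lymphocyte genes had 4 lower and 0 higher of 5 (background 27.1% and 12.8%), with 2 to 4 lower under the other scalings. The gaps were −0.41 for CD28, −0.11 for CTLA4, −0.01 for CD5 and −0.0038 for CD4, where the sides nearly touched. The remaining gene, IFNG, overlapped, at −0.31 and 2.28 in the model arrays and −0.94 and −0.14 in the controls. Its mean difference of 1.52 went the other way.

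**Figure D5:**
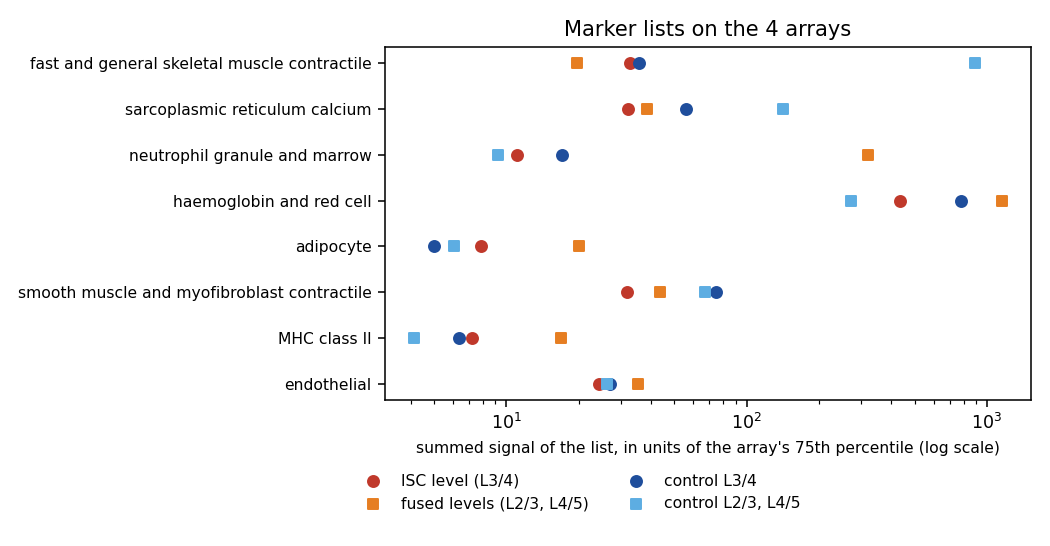
Summed signal of the array's members of 8 marker lists (horizontal axis, log scale, in units of each array's 75th percentile), 1 point for each array. The L2/3+L4/5 control stands apart in skeletal muscle genes at 894, and the fused array in neutrophil and marrow genes at 320.1. The smooth muscle list has both model arrays below both controls, but shares TPM1, TPM2 and DES with the skeletal muscle list. In the L2/3+L4/5 control TPM1 was at 4.81 and DES at 2.34, against 2.72 and −2.51 in the L3/4 control. The part of skeletal muscle RNA in this sum was not tested.

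Of 5 measured proteoglycan and matrix glycoprotein genes 2 were lower, ITIH6 and LUM, and 0 higher (background 27.1% and 12.8%). LUM, the collagen-binding proteoglycan lumican, was at 4.43 and 3.78 on the ISC and fused arrays and 4.99 and 5.14 in the L3/4 and L2/3+L4/5 controls. All 4 of its probes were lower, with gaps between −0.71 and −0.57, while its model arrays differed by 0.65. P4HB, a subunit of the enzyme that hydroxylates collagen, had a gap of −0.40. The proteoglycan genes DCN, BGN and OGN overlapped, as did COL1A2 and COL8A1. COL2A1 at −0.08 and CNMD, chondromodulin, at −0.08 were below both controls by less than the differences within the sides, and both overlapped under the authors' scaling. COL2A1 also overlapped with quantile normalization, with normexp and with its probes averaged. Only 1 of its 5 measured probes lay below both controls. PTH1R, the parathyroid hormone receptor gene, had a gap of −0.14.

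Of 6 measured matrix proteases 2 were higher and 1 lower (background 12.8% and 27.1%). MMP13, collagenase-3, was at −0.43 and −0.33 in the model arrays, −2.69 in the L3/4 control and −0.89 in the L2/3+L4/5 control. Its gap of 0.45 was smaller than the difference between the controls, 1.80. PLAU, urokinase, was at 1.30 and 1.49 against 0.74 and 0.48, a gap of 0.56 that exceeded the differences within both sides, but only 1 of its 3 probes separated the sides. MMP3, stromelysin-1, had a gap of −0.20, and MMP2 and CTSK overlapped. The inhibitor TIMP1 overlapped, at 3.07 and 1.77 in the model arrays and 2.02 and 3.03 in the controls. PAPSS2, a synthase of the sulphate donor used on proteoglycans, was at 0.34 and 0.46 against −1.72 and −0.26. All 5 of its probes were higher, with gaps from 0.51 to 0.76, while its controls differed by 1.46. TNFAIP6, a hyaluronan-binding protein, had a gap of −0.13, which was lost with its 7 probes averaged.

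In the cell cycle list CCNA2, cyclin A2, stood beside E2F6, at 1.13 and 1.68 in the model arrays and −0.12 and 0.45 in the controls. All 3 of its probes were higher, with gaps from 0.32 to 0.72. TACC3 overlapped, at −1.65 and 2.08 against 0.30 and −1.71. The remaining lists hold few genes, and their counts are to be read against the background of 12.8% higher and 27.1% lower. Of 9 antioxidant genes 2 were higher, GCLC and ALDH1A1, and 3 lower, FMO2 and GPX3 among them. Of 7 lipid genes 3 were higher, SPTLC1 and APOD among them, and CYP27A1 and CYP7A1 were lower. Of 7 endothelial genes THBD and VCAM1 were higher and SOX17 lower, the last 2 by gaps of 0.05 and −0.04. Of 8 cytokine genes CXCL8 was higher, and TNFSF13B and LIF were lower with gaps of −0.23 and −0.17. Of 11 ion channel and transporter genes 3 were lower, TRPC1 and SLC5A1 among them, and 0 higher, a share of lower genes at the background of 27.1%. Among the 5 common reference genes 4 overlapped, ACTB with 7.11 and 7.44 against 7.56 and 7.14, and EEF1A1 had a gap of −0.02 that was lost under cyclic loess and normexp.

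Features seen on 1 side only have a bound in place of a gap. Of 22904 features, 548 were well above background on both model arrays and on neither control, and 60 the reverse, alongside the greater brightness of the model arrays. Genes with a symbol made up 28 and 2 of these, among 1489 such genes on the array. A bound sets the mean of the bright side against, on each dim array, whichever is higher, the gene's value or the dimmest spot there that passed the background mark. KCNA3, a potassium channel gene of lymphocytes, was at least 4.17-fold higher in the model arrays, with signals of −2.02 and −0.23. CCR1, a chemokine receptor, was at least 2.49-fold higher, a bound that rests on the fused array at −0.66, since the ISC array at −2.96 lay close to the L2/3+L4/5 control at −3.10. MSR1, a macrophage scavenger receptor, was at least 2.10-fold higher and LGALS4, a galectin, at least 1.80-fold. For LGALS4 the fused array at −3.42 lay below the measured value of the L3/4 control at −3.33, so its bound rests on the ISC array. In the other direction BPIFC was at least 2.98-fold lower and CCSER1 at least 2.76-fold lower in the model arrays.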

How the data were processed

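RNA of 4 ligament samples, carrying the dye Cy3, was measured on 1 slide of Agilent arrays with 1 colour. The submitters' processing notes name Agilent Feature Extraction 12.0.3. Each deposited value is a linear spot intensity, background-subtracted and detrended within each array, per the file headers, with the software's marks for each spot in other columns. The authors' deposited value table equals these intensities times 1 factor per array and served as an alternative.

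Control spots (ControlType other than 0) and 3 to 7 outlier spots per array were removed, and saturation affected 0 spots. Spots of a probe were averaged in log2 after subtracting the array's 75th percentile. The median SD of replicate spots, over 30 to 37 probes, was 0.11 to 0.14, a technical spread. The number of arrays limits precision. RefSeq accessions without versions were named through a RefSeq table of assembly mOryCun1.1, for 3792 of 43603 probes and 1489 genes, and no coordinates are given. The probe with the highest mean represents a gene. Of 814 list symbols 245 were named on the array and 168 measured. Named are the 15 largest gaps per direction, up to 3 list members per direction, the 5 largest bounds, and 20 fixed genes, of which 15 were on the array and ELN and FBN1 were not named. Other genes were named after their values were seen. The members and lists were chosen with earlier results of these data known. Tools were Python 3.11.15 and limma 3.58.1 in R 4.3.3. The gap and the limma fit (2 residual degrees of freedom) were tested on simulated data. The simulated noise was smaller than the differences between these arrays, so that test checks the code only. Some genes that these rules name are not reported here.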

Additional observations from a re-analysis of the deposited data

Results flagged for a closer look

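For 9 of the fixed genes the model array lay above its control at one lumbar position and below it at the other. With 1 array each, the difference between the positions was not tested. Differences from the matched control are given for L3/4 (ISC) first and for L2/3 with L4/5 (fused) second, followed by the first minus the second. BGN, COL1A2, MMP2, TIMP1 and TGFB2 lay above the matched control at the ISC level and below it at the fused levels. BGN, biglycan, was at 1.27 and −2.07, apart by 3.34. COL1A2 was at 0.89 and −0.62, apart by 1.51. MMP2, a gelatinase, was at 0.48 and −0.70, apart by 1.18, and its inhibitor TIMP1 at 1.05 and −1.26, apart by 2.31. The ligand gene TGFB2 was at 1.27 and −0.95, apart by 2.22. The other 4 genes ran the other way. DCN, decorin, was at −0.23 and 0.07, a difference of −0.30. S100A9 was at −1.13 and 5.35, a difference of −6.48, and HBA at −0.89 and 2.10, a difference of −2.99. ACTA2 was at −1.04 and 0.23, a difference of −1.27.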

How the results depend on the processing

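None of the 76 named genes with a gap changed to the opposite side with another scaling, background correction or averaging of probes. Runs with another filter on features keep the same values, and leaving out 1 array cannot reverse an order. Those runs could therefore not change a side. Under the alternatives that keep all 4 arrays, sides overlapped in at least 1 setting for 13 genes, whose gaps were at most 0.25 in size. The 12 genes at 2-fold kept their side with each scaling, background correction and averaging of probes, and only SLN and E2F6 stayed at 2-fold with normexp. The normexp offset of 50 exceeds the median signal of every array, 11.8 to 22.2, and so shrinks ratios of dim features. With it, 5 features were 2-fold higher and 2 lower. Of the 43 higher and 62 lower features, all kept their side with quantile normalization, cyclic loess, median centring and the authors' scaling. Other filters change the number of features, which was 12741 in the main run, with 1700 higher and 3317 lower. With no filter on dim probes 2982 of 22899 features were higher and 7339 lower, 292 and 281 of them at 2-fold. The 15686 features well above background on at least 2 of 4 arrays gave 231 and 148 at 2-fold. Among the 6371 features in the upper part by mean signal, split at the median, 842 were higher and 1534 lower, 10 and 13 at 2-fold. A gap of 1.5-fold gave 215 and 303 features and 3-fold gave 4 and 10. With the software's looser mark of signal, 376 features were seen in the model arrays only and 105 in the controls only, against 548 and 60 with the main mark. Leaving out 1 array at a time, which leaves fewer orders to meet, gave 3335 to 3739 higher and 4963 to 5874 lower features, and at 2-fold 156 to 638 and 152 to 606. The limma fit then called 0 to 146 higher and 0 to 6 lower, with all calls made without the ISC array, where the fused array alone stands against the controls. With lumbar level as a replicate block the limma fit called 0 features, with 221 higher and 285 lower at an unadjusted p under 0.05. Across features, deviations of the arrays of the same lumbar level correlated at −0.12.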

Other observations

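Many features without a symbol had gaps as large as those of the named genes. The probe A_04_P029592 was at 0.02 and 0.42 on the ISC and fused arrays and −2.13 and −2.07 in the L3/4 and L2/3+L4/5 controls, a gap of 2.09. The transcript ENSOCUT00000002858 was at −0.05 and −0.37 against −2.33 and −2.26, a gap of 1.88. In the other direction ENSOCUT00000011538 was at −2.26 and −2.51 against −0.05 and 0.82, a gap of −2.21. DN889681 had a gap of −1.94, with controls at 1.66 and 4.67. These features were chosen for the size of their gaps.

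The sides do not divide the arrays by likeness. Across 12741 features, which are not independent, the highest Pearson correlation joined the ISC array with the L2/3+L4/5 control, at 0.957. It was 0.916 between the model arrays and 0.925 between the controls. The median absolute difference was 0.37 between the model arrays, 0.45 between the controls and 0.31 between the ISC array and the L2/3+L4/5 control.

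The probe chosen for PTGER2, a prostaglandin E2 receptor gene, read 10.1 and 10.0 in the model arrays and 10.6 and 10.3 in the controls, while its 5 other probes were not well above background on all arrays. Its gap of −0.24 rests on that probe alone.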
